A study of Mus musculus with 29 samples.

Results

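The synaptotagmin family was followed through the ribosome-bound and reference RNA of astrocytes and microglia. Its 10 members here were the rows with the symbols Syt1, Syt2, Syt4, Syt5, Syt7, Syt11, Syt12, Syt13, Syt16 and Syt17, out of 36172 gene rows in the deposited matrix, and all 10 passed the filter on low counts in every comparison. The rows were picked by these symbols, with no threshold on a measured value, although earlier results of these data were known when the family was chosen. The study isolated RNA by TRAP (translating ribosome affinity purification), in which ribosomes that carry an EGFP-tagged L10a protein are pulled from a brain homogenate with an antibody against GFP. Aldh1l1-NuTRAP mice (Aldh1l1-cre/ERT2+; NuTRAP+) expressed the tag in cells in which the Aldh1l1 promoter drove Cre, meant as astrocytes, and Cx3cr1-NuTRAP mice (Cx3cr1-cre/ERT2+; NuTRAP+) in cells in which the Cx3cr1 promoter drove it, meant as microglia. Tamoxifen, given to all mice of both lines when they were about 3 months old, activated the Cre, and the sex of each mouse is not in the labels. The positive fraction is the RNA on the beads, the negative fraction the RNA left unbound and the input the cleared homogenate, while whole tissue was extracted conventionally. The whole tissue libraries are titled Slice, and the study describes TRAP from a half-brain or hippocampus. In comparisons with whole tissue, the extraction and the piece of brain cannot be told apart. Cre-ERT2 of the Cx3cr1 line also acts in other cells that use this promoter, such as macrophages at the brain's borders.

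The 29 libraries were the positive and negative fractions of 3 Aldh1l1-NuTRAP mice (290, 293 and 294), the positive, negative and input fractions of 6 Cx3cr1-NuTRAP mice (155, 192, 194, 209, 210 and 277) and whole tissue of all of the latter except mouse 155. For the Aldh1l1-NuTRAP line, input and whole tissue were not analysed here. Libraries of 1 mouse come from the same animal, so each mouse is the replicate.

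The members are protein-coding genes spread over 8 chromosomes, with positions on mm10 as deposited. On the plus strand lie Syt2 (chr1:134646681-134749417), Syt7 (chr19:10389090-10453181), Syt13 (chr2:92915101-92956051) and Syt16 (chr12:73997761-74267916). On the minus strand lie Syt1 (chr10:108497650-109010975), Syt5 (chr7:4539765-4546567), Syt11 (chr3:88744701-88772599), Syt12 (chr19:4445908-4477143), Syt17 (chr7:118381856-118443552) and, on chromosome 18, Syt4. The counts are of whole genes, over exons of 2380 bases in Syt5 to 9144 bases in Syt16.

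Synaptotagmins are membrane proteins with paired C2 domains, the folds with which several of them bind calcium and phospholipids. Syt1 and Syt2 are the calcium sensors of fast, synchronous transmitter release at synapses, and work with the SNARE proteins that fuse the vesicle with the plasma membrane. Syt7 has a higher affinity for calcium and serves asynchronous release, facilitation and the exocytosis of lysosomes, also outside neurons. In Syt4 and Syt11 a substitution in the first C2 domain weakens calcium binding, and Syt12, Syt13, Syt16 and Syt17 lack most of the residues that hold calcium.

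Promoter sequences are shown for 3 members because their values in the astrocyte pulldown were unlike: Syt1 and Syt2 were called lower in it, and Syt11 did not pass the test. They are the RefSeq windows on GRCm38.p6 from 250 bases before to 50 bases after the start, written 5′ to 3′ on the strand of the gene, with every CG dinucleotide in capitals. The window of Syt1 is chr10:109010926-109011225 on the minus strand, that of Syt2 is chr1:134646362-134646661 on the plus strand, and that of Syt11 is chr3:88772550-88772849 on the minus strand.
Syt1: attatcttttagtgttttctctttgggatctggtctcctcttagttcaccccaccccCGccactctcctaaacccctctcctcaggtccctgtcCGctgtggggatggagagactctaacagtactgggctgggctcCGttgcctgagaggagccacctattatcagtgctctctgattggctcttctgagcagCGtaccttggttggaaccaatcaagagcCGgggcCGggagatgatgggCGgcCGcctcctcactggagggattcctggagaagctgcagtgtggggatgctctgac
Syt2: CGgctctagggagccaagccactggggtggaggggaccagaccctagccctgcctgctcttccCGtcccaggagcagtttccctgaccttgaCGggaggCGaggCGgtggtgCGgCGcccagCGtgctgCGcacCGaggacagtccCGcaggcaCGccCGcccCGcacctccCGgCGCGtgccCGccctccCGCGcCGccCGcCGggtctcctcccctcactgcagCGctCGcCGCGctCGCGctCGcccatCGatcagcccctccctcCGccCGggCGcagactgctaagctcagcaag
Syt11: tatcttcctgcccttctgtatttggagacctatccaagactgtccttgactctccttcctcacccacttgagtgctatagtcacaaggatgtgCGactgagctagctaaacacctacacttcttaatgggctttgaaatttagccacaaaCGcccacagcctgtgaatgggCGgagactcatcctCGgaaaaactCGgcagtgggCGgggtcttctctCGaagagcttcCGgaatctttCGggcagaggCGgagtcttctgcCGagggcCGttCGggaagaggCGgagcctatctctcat

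The Syt2 window held 34 CG dinucleotides, more than 92.3% of the 32851 RefSeq windows of this length, the Syt11 window held 14 and the Syt1 window held 8, beside a median of 7. The letters GGGCGG, read on both strands, occurred 4 times in the Syt2 window, 2 times in the Syt11 window and 1 time in the Syt1 window, and at least once in 35.7% of all windows. The letters TATAAA, found in 13.6% of all windows, occurred in none of these 3. These are descriptions of the letters in the windows. RefSeq windows were found for 4 of the 10 members, these and Syt16, with Syt4 left out of the search. Each of Syt1 and Syt2 has a second window downstream, and the Syt2 window above is placed on a start upstream of that in the deposited table.

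The total count of a library lay between 4260949 (mouse 210, whole tissue) and 26857866. The lowest count of any member in any library was 47, for Syt17 in an astrocyte positive fraction. The defining markers went with the labels. Aldh1l1 was at 540 ± 40.4 CPM (counts per 1000000 of the library total, SD, n = 3) in the Aldh1l1-NuTRAP positive fraction and 71.4 ± 13.3 CPM (n = 3) in the negative fraction, and Cx3cr1 was at 274 ± 84.9 CPM (n = 6) in the Cx3cr1-NuTRAP positive fraction and 27.3 ± 1.27 CPM (n = 6) in the input. Long and short genes separated 3 libraries from their groups. The median log2 deviation of genes with over 6000 exonic bases, minus that of genes with under 2000, was -0.74 in the negative and -1.03 in the positive fraction of mouse 290 and -0.65 in the negative fraction of mouse 155, against -0.39 to 0.62 in the other 26 libraries. Values without these mice are given where a call turned on them.

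Syt11 and Syt1 were the most abundant synaptotagmins in brain RNA. To compare genes, the CPM was divided by the exonic length in kilobases (the union of GENCODE exons). In Cx3cr1-NuTRAP whole tissue Syt11 stood at 236 ± 10.1 CPM per kb (SD, n = 5) and Syt1 at 117 ± 12.7 CPM per kb. Syt4 at 76.3 ± 4.76, Syt13 at 72.8 ± 4.02, Syt7 at 46.3 ± 4.57 and Syt5 at 41.4 ± 5.60 CPM per kb followed. The means of Syt4 and Syt13 differed by less than the SD of Syt4, and those of Syt7 and Syt5 by less than the SD of Syt5. Syt2 at 22.3 ± 7.57, Syt12 at 8.06 ± 0.97, Syt16 at 5.00 ± 0.69 and Syt17 at 3.67 ± 0.92 CPM per kb came last. Syt11 had the highest level per kb in all 6 groups and Syt1 the second highest. With the length of the longest transcript in place of the union, Syt1 came first in the Cx3cr1-NuTRAP input, at 258 against 225 CPM per kb for Syt11. In whole tissue that length placed Syt5 (56.3 CPM per kb) above Syt7 (52.4) and Syt17 (6.46) above Syt16 (5.61), with Syt1 at 203 CPM per kb.

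Summed over the 10 members, the family took 3504 ± 113 CPM (SD, n = 5) in whole tissue, 3709 ± 103 CPM (n = 6) in the Cx3cr1-NuTRAP input and 3661 ± 50.4 CPM (n = 6) in its negative fraction. The sum was 3059 ± 499 CPM (n = 6) in the microglia pulldown, where single mice ran from 2357 to 3620 CPM. In the Aldh1l1-NuTRAP line it was 1921 ± 200 CPM (n = 3) in the positive and 4042 ± 83.7 CPM (n = 3) in the negative fraction, with no overlap. The ratio of Syt11 to Syt1 in CPM was 3.64 to 10.7 in the astrocyte pulldown and 0.932 to 2.63 in its negative fraction, highest in mouse 290 both times. These ratios did not overlap.

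**Figure D1:**
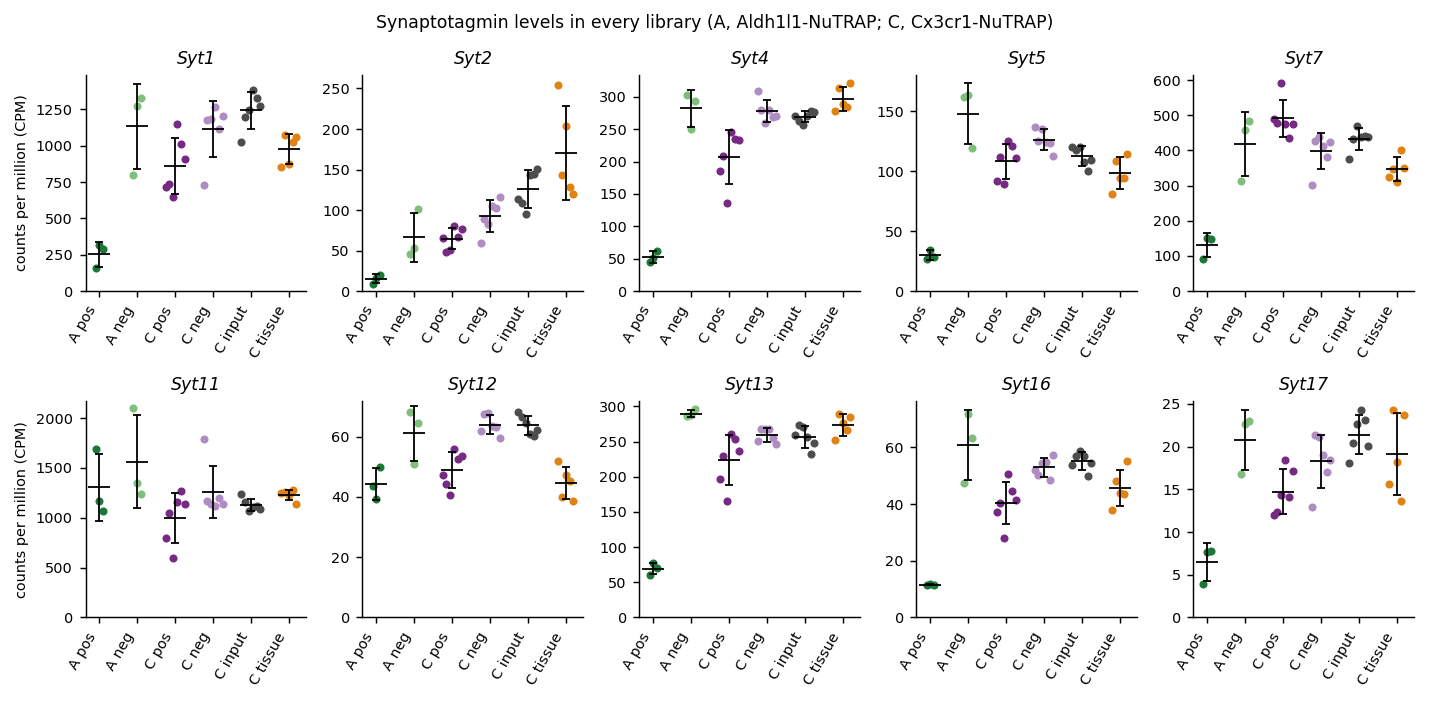
CPM of each synaptotagmin (y axis, from 0) in each of the 29 libraries (points) by group (x axis), with the mean and SD of the group as bars. Most members are lowest in the Aldh1l1-NuTRAP positive fraction (A pos), such as Syt13 at 61.0 to 77.4 CPM against 286 to 296 CPM in the negative fraction, while Syt11 overlaps between these fractions.

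The fractions of the Aldh1l1-NuTRAP mice were compared for the level of each member in the pulldown and in what stayed behind. In Aldh1l1-NuTRAP mice, 8 of the 10 synaptotagmins were lower in the positive than in the negative fraction and 0 were higher, while Syt11 and Syt12 did not pass the test. Over all 13319 genes tested, 24.8% were called lower and 26.8% higher. The median log2 fold change was -1.75 over the 10 members and 0.04 over all genes. A lower level in such a bulk fraction cannot tell fewer cells of a type from less RNA per cell. Neuron markers moved with these members, 12 of 12 lower with a median of -1.50, and their summed level was 1514 to 1833 CPM in the positive and 5413 to 5996 CPM in the negative fractions, with none of the 12 at 0 in either. Other cell types fell too, with 10 of 10 microglia markers (median -2.35), 8 of 9 oligodendrocyte markers (-2.77) and 4 of 5 of their precursors' markers (-1.47) lower. Astrocyte markers were higher in 9 of 9 and choroid plexus markers in 5 of 5, and 0 of 6 endothelial markers were called. The part of neuronal RNA carried over into the pulldown, and that of the other cell types, was not tested.

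The sensors of fast release came down clearly. Syt1 was at 158, 320 and 288 CPM in the positive fractions of mice 290, 293 and 294 and at 797, 1272 and 1332 CPM in their negative fractions. The groups did not overlap, and mouse 290, whose libraries were low in long genes, was lowest in both. The log2 fold change was -1.81 ± 0.30 (SE, adjusted p = 0.00214), a 3.50-fold difference seen in 3 of 3 mice. Syt2, the sensor of fast release in the hindbrain and in parvalbumin interneurons, was at 8.90, 16.5 and 19.8 CPM against 45.5, 52.8 and 101 CPM. Its log2 fold change was -1.79 ± 0.38 (SE, adjusted p = 0.00634), and the highest positive fraction lay below the lowest negative fraction.

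Syt4, a postsynaptic and dense-core vesicle isoform, fell from 302, 250 and 294 CPM to 45.4, 50.7 and 62.3 CPM. With a log2 fold change of -2.07 ± 0.18 (SE, adjusted p = 0.000129) it showed the largest decrease of the family, next to Syt16 at -2.05 ± 0.19 (adjusted p = 0.000156). Syt16 was nearly the same in the 3 positive fractions, at 11.5, 11.6 and 11.5 CPM, and varied in the negative fractions between 47.6 and 72.0 CPM. Syt5, a calcium-binding vesicle isoform, was at 27.1, 34.6 and 28.4 CPM in the positive and at 162, 164 and 119 CPM in the negative fractions of mice 290, 293 and 294, and it fell by 1.96 ± 0.20 on the log2 scale (adjusted p = 0.000235) and Syt13 fell by 1.72 ± 0.15 (adjusted p = 0.000133). The 3 positive fractions of Syt13 held 61.0, 77.4 and 69.8 CPM, and the 3 negative fractions 286, 287 and 296 CPM. Syt7 and Syt17 had the smallest of the 8 decreases, -1.33 ± 0.25 (adjusted p = 0.00346) and -1.33 ± 0.28 (adjusted p = 0.00620). In Syt7 the positive fractions of mice 290, 293 and 294 held 90.9, 152 and 148 CPM and the negative fractions 313, 457 and 483 CPM, and the lowest value of each fraction was again that of mouse 290. Syt17, a peripheral membrane isoform and the least abundant member, was at 3.96, 7.70 and 7.80 CPM against 16.8, 22.6 and 23.0 CPM.

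Syt11, a calcium-independent isoform of vesicle and membrane trafficking, was at 1690, 1164 and 1064 CPM in the positive and at 2097, 1346 and 1241 CPM in the negative fractions. The fractions overlapped, and mouse 290 was the highest in both. The log2 fold change was 0.09 ± 0.28 (SE, adjusted p = 0.81) after TMM scaling, which places the median gene near 0, and the ratio was above 0 in 3 of 3 mice (0.09, 0.19 and 0.16). Scaling by library totals alone gave -0.26 (adjusted p = 0.427), since the median of all genes then moved to -0.31, so no direction can be given for Syt11. Syt12, a vesicle protein that does not bind calcium, was at 43.7, 39.4 and 49.9 CPM in the positive and at 68.2, 50.8 and 64.3 CPM in the negative fractions. These CPM did not overlap, yet the TMM-scaled log2 fold change was -0.12 ± 0.18 (adjusted p = 0.595), with 2 mice above and 1 below 0. With library totals only it was -0.46 (adjusted p = 0.0585), so that the size depended on the scaling.

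**Figure D2:**
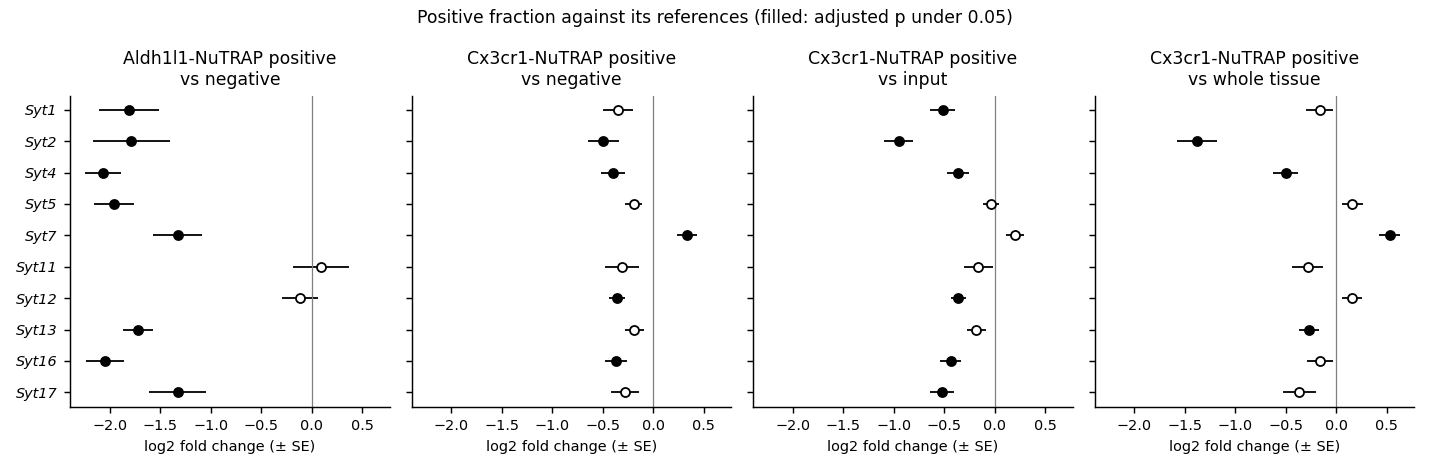
Log2 fold change (x axis, bars show ± SE) of each synaptotagmin (y axis) in the positive fraction against 4 references, with filled points for an adjusted p under 0.05. In the Aldh1l1-NuTRAP line 8 members lie between -2.07 and -1.33, while in the Cx3cr1-NuTRAP line most lie within 0.6 of 0 and Syt7 is above 0.

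All 8 calls held under each of the 10 alternatives run for this comparison, including those without mouse 290 (highest adjusted p over the 10, 0.0476 for Syt17). The counts over all genes moved with the mice, from 3569 higher and 3299 lower to 1977 and 1685 without mouse 293 and to 1987 and 1600 without mouse 294. With library totals only, 2436 genes were higher and 4824 lower.

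**Figure D3:**
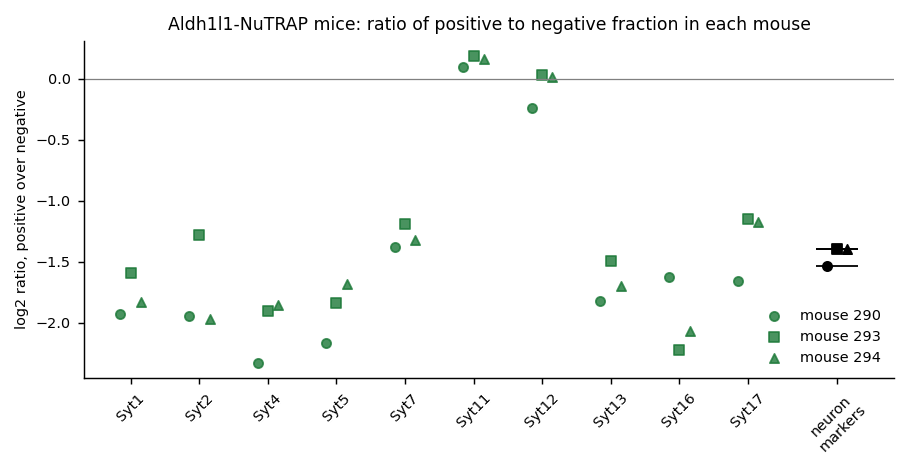
Log2 ratio of positive to negative fraction (y axis, TMM-scaled) of each synaptotagmin (x axis) in the 3 Aldh1l1-NuTRAP mice (marker shapes), with the median of 12 neuron markers in each mouse in black. Syt11 and Syt12 lie near 0 and the neuron markers between -1.54 and -1.40, with the other members around or below them.

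The members separated further when each ratio was set against the neuron markers of the same mouse. The median marker ratio was -1.54, -1.40 and -1.40 in mice 290, 293 and 294. Relative to it, Syt4 lay at -0.59 ± 0.18 (SD, n = 3 mice), Syt16 at -0.53 ± 0.39, Syt5 at -0.46 ± 0.17, Syt1 at -0.34 ± 0.12 and Syt13 at -0.23 ± 0.11 on the log2 scale, each below the markers in 3 of 3 mice. Syt2 at -0.29 ± 0.36 and Syt17 at 0.12 ± 0.21 lay on both sides of the markers, and Syt7 lay above them by 0.15 ± 0.07 in 3 of 3 mice. With the mean of the markers in place of their median Syt7 was at 0.08, above in 2 mice and below in 1, and against the study's neuron list Syt16 was at -0.47, below in 2 mice and above in 1. Syt11 and Syt12 stood 1.59 ± 0.04 and 1.38 ± 0.07 above the markers, in 3 of 3 mice each. As a result Syt11 made up 69.7% ± 8.87 (SD, n = 3) of the summed family level per kb in the astrocyte positive fraction, against 40.5% ± 9.27 in the negative fraction and its share was highest in mouse 290 in both. The study's own oligodendrocyte marker list contains Syt11, and its neuron list contains Syt1 and Syt4. Of 9 oligodendrocyte markers, 8 were lower in the astrocyte pulldown and 0 higher (median log2 fold change -2.77, summed level 1185 to 1382 CPM against 6249 to 7554 CPM), and their part in the level of Syt11 was not tested.

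The partners of synaptotagmins in neuronal release went the same way as the 8 members. Of 20 such genes 19 were lower and 0 higher, with a median log2 fold change of -1.37, the exception being Sv2c at 0.87 (adjusted p = 0.601). The decrease was -2.09 ± 0.20 for the vesicle glycoprotein Sv2b, -1.96 ± 0.19 for the plasma membrane SNARE Stx1a, -1.90 ± 0.16 for Napb, which helps to disassemble SNARE complexes, and -1.79 ± 0.15 for the SNARE Snap25. SNARE machinery that cells use broadly did not follow: of 14 genes tested, 6 were higher and 2 lower, with a median of 0.35. Vamp8 and Vamp3, vesicle SNAREs of endosomes and of constitutive or regulated secretion outside neurons, were higher by 2.83 ± 0.53 and 1.20 ± 0.16.

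Among C2-domain relatives, 6 of 9 tested genes were lower and 0 higher, led by the neuronal calcium sensor Doc2a at -1.68 ± 0.17 and the granule-associated Sytl2 at -1.52 ± 0.15. Of the 7 other synaptotagmins 4 could be tested and 3 were lower, Syt6 at -1.41 ± 0.32, Syt3 at -1.02 ± 0.16 and Syt9 at -0.86 ± 0.30. The remaining one, Syt15, was at 1.17 (adjusted p = 0.148). Syt8 did not exceed 4 counts in any of the 29 libraries. All 9 astrocyte markers were higher (median 3.15), as were 5 of 5 choroid plexus markers (median 2.40, summed level 2904 to 3370 CPM against 483 to 634 CPM), and the part of the latter in the values of Syt11 and Syt12 was not tested.

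The 8 members called lower in the astrocyte pulldown had smaller fold changes in the microglia pulldown, against its negative fraction as well as its input. Against the input, the Cx3cr1-NuTRAP positive fraction had 6 of 10 synaptotagmins at a lower level (25.6% of the 13838 genes tested) and 0 were higher (23.3%). The median log2 fold change of the members was -0.37, beside -0.0027 for all genes. All 10 microglia markers were higher, with a median of 3.64, as were 4 of 4 border macrophage markers, with a median of 3.03, and 3 of 6 endothelial markers. Lower were 8 of 9 oligodendrocyte markers (median -0.65), 5 of 5 of their precursors' markers and 6 of 9 astrocyte markers (median -0.41). Of the neuron markers, 3 of 12 were lower, with a median of -0.09 and a summed level of 4483 to 6196 CPM against 5550 to 5745 CPM in the input. Of 6 forebrain excitatory markers 3 were lower, with a median of -0.37, and of 6 hindbrain and parvalbumin markers 2 were lower and 1 higher, with a median of -0.05. In addition, the median of the study's own neuron list without its synaptotagmins was below 0 in 6 of 6 mice, from -0.51 to -0.02. The microglia markers had a summed level of 3338 to 7994 CPM in the pulldown and of 403 to 444 CPM in the input. The part of neuronal RNA in the levels of the members here was not tested.

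Syt2 fell most. It ranged from 48.0 to 79.8 CPM with a median of 66.1 in the 6 positive fractions, and from 94.8 to 151 CPM with a median of 129 in the inputs, so that the groups did not overlap. The log2 fold change was -0.95 ± 0.14 (SE, adjusted p = 0.000122), and it was lower in 6 of 6 mice. Syt1 went from a median of 1262 CPM (1026 to 1385) in the input to 823 CPM (647 to 1147), a log2 fold change of -0.52 ± 0.13 (adjusted p = 0.00412), lower in 6 of 6 mice although the groups overlapped. Syt17, Syt16, Syt4 and Syt12 fell by 0.52, 0.44, 0.37 and 0.36 on the log2 scale, and each was lower in 6 of 6 mice. Leaving out mouse 192 took the call from Syt4 alone (adjusted p = 0.0525).

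Syt5, Syt11, Syt13 and Syt7 did not pass this test. Their log2 fold changes were -0.04 ± 0.08, -0.16 ± 0.14, -0.18 ± 0.09 and 0.20 ± 0.08. For Syt7, higher in 5 of 6 mice, the adjusted p was 0.0641, and it was 0.0300 with DESeq2, 0.0436 with RLE scaling, 0.0348 with a filter of 100 counts and 0.0423 without mouse 194. The release partners were lower in 8 of 20 and higher in 1, with a median of -0.25, led by the active zone scaffold Rims1 at -1.11 ± 0.11 (from the row with most counts of 2 that carry this symbol). Of 14 broadly used SNARE genes 4 were higher and 1 lower, with Vamp8 at 1.22 ± 0.15. The other synaptotagmins Syt14 and Syt10 fell by 1.54 ± 0.25 and 0.95 ± 0.24. Both were low, at 1.24 ± 0.30 and 3.09 ± 0.75 CPM (SD, n = 6) in the positive fraction, and their levels were close to these in the negative fraction, at 1.38 ± 0.52 and 3.41 ± 0.72 CPM, against 3.68 ± 1.20 and 6.00 ± 2.08 CPM in the input. Of the other synaptotagmins, 2 were also called lower in negative fraction against input, and 0 differed between positive and negative fractions, where Syt14 was too low to be tested.

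Relative to the median of the neuron markers in the same mouse, 6 members lay below 0 in 6 of 6 mice in positive fraction against input. The mean log2 difference was -0.87 ± 0.29 for Syt2 (SD, n = 6 mice), -0.46 ± 0.13 for Syt1, -0.45 ± 0.20 for Syt17, -0.38 ± 0.19 for Syt16, -0.31 ± 0.15 for Syt4 and -0.29 ± 0.05 for Syt12. Syt7 lay above the markers in 5 of 6 mice, at 0.27 ± 0.35. The sizes depended on the markers used. Against the study's neuron list without its synaptotagmins, the 6 members remained below in 6 of 6 mice but nearer to 0, with Syt1 at -0.29, Syt4 at -0.14, Syt12 at -0.12 and Syt2 at -0.71, while Syt7 at 0.44 and Syt5 at 0.20 lay above in 6 of 6 mice. Syt12, 1.38 above the markers in astrocyte positive against negative fraction, was thus below them here against the input. Against the negative fraction of this line it was also below, at -0.27 in 6 of 6 mice. It held 40.7 to 55.8 CPM in the microglia pulldown and 60.1 to 68.0 CPM in the input.

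Syt7 was called higher in the microglia pulldown against 2 of the 3 references, and not against the input. Against the negative fraction it was the 1 synaptotagmin called higher (12.8% of the 13776 genes tested) while 4 were lower (11.6%), namely Syt2, Syt4, Syt12 and Syt16. The median over the members was -0.33, beside -0.02 over all genes. In the same comparison microglia markers were higher in 10 of 10 (median 3.65) and border macrophage markers in 4 of 4 (3.20), while oligodendrocyte markers were lower in 8 of 9 (-0.71), astrocyte markers in 6 of 9 (-0.42), forebrain excitatory markers in 3 of 6 (-0.37) and neuron markers in 1 of 12 (-0.12). The part of these cell types in the calls of the members was not tested. The Syt7 level was 436 to 591 CPM with a median of 477 in the positive fractions and 301 to 439 CPM with a median of 418 in the negative fractions. The ranges met at their ends, with mouse 210 lowest in the pulldown. The log2 fold change was 0.33 ± 0.10 (SE, adjusted p = 0.0289), and the ratio was above 0 in 6 of 6 mice, from 0.20 in mouse 277 to 0.72 in mouse 155, whose negative fraction was low in long genes. The call did not survive leaving out mouse 192, 194 or 277 (adjusted p = 0.056, 0.058 and 0.0598). Against whole tissue Syt7 was higher by 0.53 ± 0.10 (adjusted p = 0.000911) with no overlap, the 5 tissues lying between 311 and 401 CPM. The input was itself higher than whole tissue by 0.32 ± 0.07 in 5 of 5 mice, and the pulldown did not pass the test against the input.

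Syt4 at -0.40 ± 0.12 (adjusted p = 0.0226), Syt12 at -0.36 ± 0.08 (adjusted p = 0.00432), Syt2 at -0.49 ± 0.16 (adjusted p = 0.0331) and Syt16 at -0.37 ± 0.11 (adjusted p = 0.0251) were the members lower than in the negative fraction. Only Syt12 kept its call with each mouse left out. Without mouse 192 the adjusted p was 0.126 for Syt2, 0.0903 for Syt4 and 0.084 for Syt16, without mouse 194 it was 0.0885 for Syt2 and 0.0551 for Syt16, and without mouse 277 it was 0.0718 for Syt2 and 0.0838 for Syt16. Without mouse 210, and with all groups in 1 fit, it was 0.0866 and 0.0942 for Syt2. Without mouse 155, whose negative fraction stood apart, Syt4 lost its call (0.0589) and Syt1 gained one (-0.40, adjusted p = 0.036).

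Levels of several members differed between the 6 positive fractions, and so did the cell type markers. Mouse 194 had the highest summed microglia markers, 7994 CPM, and mouse 209 the lowest, 3338 CPM. Mouse 194 also had the lowest Syt1 (647 CPM), Syt11 (594 CPM), Syt4 (136 CPM) and Syt13 (166 CPM) of the 6, and the highest Syt7 (591 CPM). In mouse 209 Syt1 was the highest, at 1147 CPM, and Syt7 was at 475 CPM. The summed neuron markers were lowest in mouse 194, at 4483 CPM, and highest in mouse 209, at 6196 CPM, and the part of either cell type in these levels was not tested. Mouse 194 was also the lowest of the 6 in oligodendrocyte markers (1374 CPM against 2964 to 3664 CPM), choroid plexus markers (215 CPM against 506 to 1035 CPM) and astrocyte markers (2814 CPM against 3379 to 4366 CPM), whose part was not tested either. The difference between long and short genes also varied among the positive fractions, at 0.41 in mouse 155 and 0.31 in mouse 194 against -0.26 to 0.03 in the other 4. These were the mice with the highest Syt7 (489 and 591 CPM) and the lowest Syt11 (796 and 594 CPM), and the part of this difference in the levels was not tested.

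**Figure D4:**
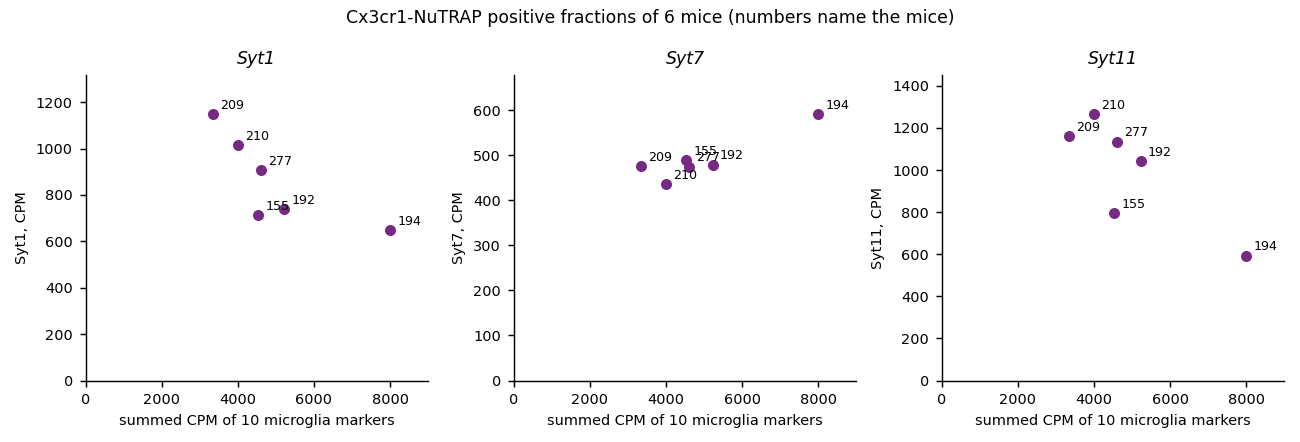
CPM of Syt1, Syt7 and Syt11 (y axes, from 0) against the summed CPM of 10 microglia markers (x axis) in the Cx3cr1-NuTRAP positive fractions of the 6 mice, with mouse numbers beside the points. Mouse 194, at 7994 CPM of microglia markers, is lowest in Syt1 and Syt11 and highest in Syt7.

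Against whole tissue, the microglia positive fraction had 3 synaptotagmins called lower (24.3% of the 13470 genes tested) and 1 higher (27.5%), the latter being Syt7, with a median of -0.22 over the members and 0.05 over all genes. Syt2 fell by 1.38 ± 0.20 on the log2 scale (adjusted p = 0.000111) and Syt4 by 0.50 ± 0.12 (adjusted p = 0.00372), both with no overlap between the groups. Beside them, 4 of 6 hindbrain and parvalbumin markers (median -0.70, summed level 851 to 1158 CPM against 960 to 2011 CPM), 9 of 9 oligodendrocyte markers (-1.31), 8 of 9 astrocyte markers (-0.50) and 4 of 6 endothelial markers (-0.83) were lower, while 3 of 12 neuron markers were lower and 3 higher (-0.15). Microglia markers were higher in 10 of 10 (3.68) and border macrophage markers in 4 of 4 (3.50). Oligodendrocyte precursor markers were lower in 5 of 5 (-1.12) and pericyte and smooth muscle markers in 4 of 5 (-1.04). Of 6 forebrain excitatory markers 2 were higher and 1 lower (0.30). The part of these cell types in the changes of the members was not tested. Syt13 fell by 0.27 ± 0.10 (adjusted p = 0.0333), and with the mouse as replicate block its change was -0.26 (adjusted p = 0.103). Without mouse 155, 192, 194 or 277 the adjusted p of Syt13 was 0.0632, 0.0694, 0.109 and 0.09, and with no filter on low counts it was 0.0539. Syt17 was at -0.37 ± 0.17 (adjusted p = 0.0768) and passed without mouse 210, the shallowest tissue library (-0.46, adjusted p = 0.0365), with DESeq2 (0.0484) and with all groups in 1 fit (0.0371).

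Syt2 was the most uneven member in whole tissue. It was at 255, 143, 204, 128 and 120 CPM in mice 192, 194, 209, 210 and 277, a coefficient of variation of 34.0% against 10.8% for Syt1 and 4.28% for Syt11. The summed level of 6 hindbrain and parvalbumin neuron markers (Pvalb, Nefh, Vamp1, Scn4b, Slc6a5 and Glra1) was 2011, 1306, 1785, 1204 and 960 CPM in the same order of mice, so that the mice ranked alike in both. The 6 forebrain excitatory markers summed to 1801, 1923, 1496, 2691 and 2430 CPM. The highest Syt2 was thus in the tissue with the highest sum of hindbrain and parvalbumin markers, while the forebrain sum was lowest in mouse 209. The part of the dissected region in this spread was not tested. The order was shared in whole tissue and not in the other groups. In the Aldh1l1-NuTRAP negative fractions mouse 290, and in the Cx3cr1-NuTRAP negative fractions mouse 155, had the most of these markers (1217 and 1327 CPM) and the least Syt2 (45.5 and 59.9 CPM). In the inputs mouse 277 had the most Syt2, 151 CPM, with the second lowest marker sum, 1098 CPM.

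**Figure D5:**
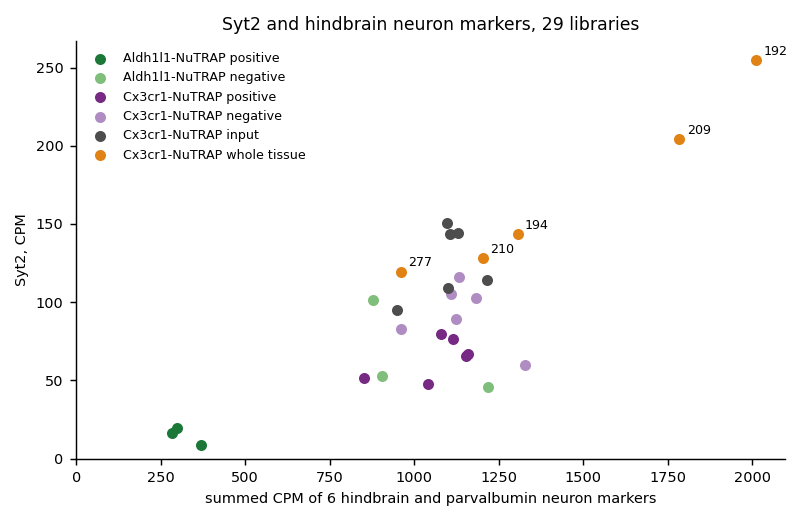
CPM of Syt2 (y axis) against the summed CPM of 6 hindbrain and parvalbumin neuron markers (x axis) in all 29 libraries, coloured by group, with mouse numbers at the whole tissue points. The 5 whole tissues run from 120 CPM of Syt2 at 960 CPM of markers to 255 CPM at 2011 CPM, and the 3 astrocyte positive fractions lie at the lower left.

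Some members also differed between input and whole tissue. Of the 10, 4 were higher in the input (16.3% of the 13608 genes tested) and 1 was lower (14.2%), with a median log2 fold change of 0.16 beside 0.0044 over all genes. Syt12 rose by 0.51 ± 0.08 (adjusted p = 0.000317), with 60.1 to 68.0 CPM in the inputs and 38.8 to 51.8 CPM in the tissues and no overlap. Syt1 at 0.34 ± 0.08 (adjusted p = 0.00699) and Syt7 at 0.32 ± 0.07 (adjusted p = 0.00489) were higher in 5 of 5 mice, and Syt16 at 0.26 ± 0.08 (adjusted p = 0.0275) in 4 of 5. Syt4 was lower, at -0.15 ± 0.05 (adjusted p = 0.0439), and not with the mouse as replicate block (-0.14, adjusted p = 0.128). Of the forebrain excitatory markers 6 of 6 were higher in the input, and of the hindbrain and parvalbumin markers 4 of 6 were lower, beside which the part of tissue composition in these calls was not tested. Endothelial markers were lower in 6 of 6 (median -1.30), pericyte and smooth muscle markers in 4 of 5 (-0.78), oligodendrocyte markers in 8 of 9 (-0.40) and astrocyte markers in 4 of 9 (-0.17), and 2 of 5 choroid plexus markers were higher (0.82). Several calls needed particular mice, and with all groups in 1 fit Syt12 was the member still called higher. Syt1 missed the threshold without mouse 209 (adjusted p = 0.057), Syt16 without mouse 192, 194 or 209 (0.202, 0.0809 and 0.132) and Syt4 without mouse 155, 194, 209 or 277 (0.0548, 0.19, 0.0752 and 0.135). Syt11 passed as lower without mouse 155 (-0.15, adjusted p = 0.0237) and Syt2 without mouse 277 (-0.61, adjusted p = 0.047).

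Between the negative fraction and the input of the Cx3cr1-NuTRAP mice, 0 of 10 members were called in either direction by edgeR, where 1.41% of the 13748 genes were higher and 4.70% lower and 4376 had an unadjusted p under 0.05. At an unadjusted p under 0.05 2 members were included, Syt2 at -0.44 ± 0.14 and Syt5 at 0.18 ± 0.06. DESeq2 called 1 member, Syt2 (adjusted p = 0.0274). These fractions of 1 mouse deviated together, and with the mouse as replicate block 4 members were lower and 1 higher, with 2684 and 2431 of all genes. The members lower in that fit were Syt2 (-0.45, adjusted p = 0.000474), Syt1 (-0.17, 0.00955), Syt17 (-0.23, 0.0261) and Syt7 (-0.12, 0.0154), and Syt5 was higher (0.17, 0.00434). Without mouse 155, Syt5 was also called without the block (0.16, adjusted p = 0.0284).

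Set against each other, the positive fractions of the lines differed in 9 of 10 synaptotagmins. In the astrocyte pulldown 8 were lower than in the microglia pulldown (33.1% of the 13676 genes tested) and 1 was higher (30.6%), with a median of -1.46 beside -0.08 over all genes. The decreases ran from -0.86 ± 0.23 for Syt17 (adjusted p = 0.00673) to -1.78 ± 0.25 for Syt2 (adjusted p = 9.01e-05). Markers moved with the members in this comparison. Neuron markers were lower in 12 of 12 (median -1.47, summed level 1514 to 1833 CPM against 4483 to 6196 CPM, none at 0), release partners in 19 of 20 and oligodendrocyte markers in 8 of 9 (median -1.46). Microglia markers were lower in 10 of 10 (median -5.88) and border macrophage markers in 4 of 4 (median -4.73). Astrocyte markers were higher in 9 of 9 (median 3.26) and choroid plexus markers in 5 of 5 (median 2.38). The part of these cell types in the differences was not tested. Syt11 was higher by 0.71 ± 0.23 (adjusted p = 0.0172), with the ranges overlapping, and this call was lost without mouse 290 (0.45, adjusted p = 0.112) and with library totals only (0.39, adjusted p = 0.168). With library totals only, 2875 of all genes were higher and 6312 lower in place of 4188 and 4530, and the median of all genes moved from -0.08 to -0.39. Syt12 was at 0.17 ± 0.12 (adjusted p = 0.25), and at -0.15 (adjusted p = 0.367) with library totals only. Per the study, the wait after tamoxifen was longer in Cx3cr1-NuTRAP mice than in the Aldh1l1-NuTRAP mice used for cytometry and histology. Each line had its own mice, so the line, the mice, this wait and the targeted cell type cannot be told apart here.

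The ratio of positive to negative fraction also differed between the lines, tested as an interaction of line and fraction. It was lower in the astrocyte line for 8 of 10 members (29.9% of the 13983 genes tested) and higher for 0 (25.5%), with a median over the members of -1.54. The neuron markers were lower in 12 of 12, with a median of -1.48, and the release partners in 17 of 20, with a median of -1.28. So were 10 of 10 microglia markers (-6.13) and 8 of 9 oligodendrocyte markers (-1.97), while 9 of 9 astrocyte markers (3.59) and 5 of 5 choroid plexus markers (2.98) were higher. The part of these cell types in the differences of the members was not tested. The log2 difference was -1.80 ± 0.18 for Syt5 (adjusted p = 9.61e-08), -1.73 ± 0.20 for Syt16, -1.71 ± 0.20 for Syt4, -1.71 ± 0.23 for Syt7, -1.57 ± 0.15 for Syt13, -1.50 ± 0.31 for Syt1, -1.34 ± 0.36 for Syt2 and -1.08 ± 0.28 for Syt17 (adjusted p = 0.00286). For Syt11 it was 0.36 ± 0.32 (adjusted p = 0.353) and for Syt12 0.20 ± 0.16 (adjusted p = 0.29), the latter at -0.08 (adjusted p = 0.701) with library totals only. Over all genes 3572 were higher and 4179 lower, and 2600 and 5719 with library totals only, with a median of -0.11 and -0.39. The interaction test took the fractions of 1 mouse as separate libraries. With the mouse as replicate block its adjusted p was 3.65e-06 for Syt5 and 0.000773 for Syt17.

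Across the 29 libraries the members fell into a group that varied alike and a pair that did not. Pearson's r of log2 CPM among Syt1, Syt2, Syt4, Syt5, Syt7, Syt13, Syt16 and Syt17 ran from 0.52 (Syt2 with Syt5) to 0.975 (Syt4 with Syt13). Syt11 was at -0.75 with Syt7 and at -0.45 with Syt1, and Syt12 at 0.04 with Syt1. The libraries share lines, fractions and mice, so these values describe the spread and carry no test. Among 14109 genes, the pattern of Syt1 was most like those of Kcnq5, Ap2a2 and Opcml (r = 0.984, 0.979 and 0.975), and that of Syt2 most like those of Scn1a, Lgi2 and Adam23 (r = 0.973, 0.971 and 0.970). Syt13 was nearest to Syngr3, Syngr1 and Atp9a (r = 0.983, 0.981 and 0.978). For Syt7 these were Slc7a8, Nuak1 and March4 (r = 0.967, 0.961 and 0.955). The genes nearest to Syt11 were Blcap, Rab2a and Sae1 (r = 0.944, 0.940 and 0.930), and Syt12 had no close neighbour, with Igsf21 first at r = 0.773.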

How the data were processed

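TRAP-RNAseq libraries of Aldh1l1-NuTRAP (3 mice) and Cx3cr1-NuTRAP (6 mice) brains were analysed. Per the study's methods, paired-end reads of strand-specific polyA libraries were trimmed, placed on mm10 and assigned to genes in Strand NGS. The raw columns hold expected counts per gene as the authors deposited them, without normalization, and 82.8% of the nonzero values are not whole, so they were rounded. The deposited normalized columns are log2 values from the authors' DESeq normalization and were not used for results. 0 columns were left without a sample.

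Following the study's filter, a gene was tested if all libraries of 1 or more of the groups compared had over 20 counts. Counts were scaled by TMM and compared in edgeR 4.0.16 under R 4.3.3 with its robust quasi-likelihood test (two-sided), fitted on the whole table with Benjamini-Hochberg adjustment over all tested genes and a threshold of 0.05. Only the groups compared entered a fit. Fold changes are on the log2 scale, log2 CPM used a prior count of 2, and CPM in the text are per 1000000 of the library total. Total counts had a median of 21017054. Alternatives were DESeq2 1.42.0, RLE scaling, library totals only, no filter, a filter of 100 counts, all groups in 1 fit, the mouse as replicate block and leaving out each mouse. Scripts were tested on simulated data. Python 3.11.15 with pandas 2.3.3, numpy 2.4.6 and matplotlib 3.10.9 was used.

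Fractions with the same mouse number come from the same animal. Correlations of their deviations from the group means over genes were 0.44 to 0.64 in the 3 pairs of Aldh1l1-NuTRAP fractions, 0.09 to 0.60 for negative fraction and input of the 6 Cx3cr1-NuTRAP mice, and -0.29 to 0.24 in the other pairs.

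Slc17a7 and Vamp1 stand on 2 lists each. The genes named are the 10 members, up to 4 genes with the largest change past the threshold from each hand-written gene list, exceptions within a list, and the 3 genes nearest to a member in pattern. Some items that this rule names are not reported here. The members and lists were chosen with earlier results of these data known. Exonic lengths are from GENCODE M21, and the promoter windows and their motif counts from RefSeq on GRCm38.p6.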

Additional observations from a re-analysis of the deposited data

Results flagged for a closer look

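In groups of 5 or 6 libraries, 40 pairs of a member and a group were examined for a library far from the others, and 3 were found, where chance gives about 1 in 20. In the Cx3cr1-NuTRAP negative fractions, mouse 155 had a Syt1 of 732 CPM, the next lowest being 1117 CPM, and a Syt11 of 1790 CPM (1788 before rounding), the next highest being 1202 CPM. This is the library in which long genes were low against short ones (-0.65 on the log2 scale). In the Cx3cr1-NuTRAP positive fractions, mouse 194 had a Syt7 of 591 CPM, the next highest being 489 CPM, and it is the library with the most microglia markers (7994 CPM summed).

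The ratio of positive to negative fraction differed between the lines, by the interaction test, for 8 members, with log2 differences of -1.50 for Syt1, -1.34 for Syt2, -1.71 for Syt4, -1.80 for Syt5, -1.71 for Syt7, -1.57 for Syt13, -1.73 for Syt16 and -1.08 for Syt17.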

How the results depend on the processing

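Of 1060 fold changes of members under alternatives, 998 kept their direction and their side of the threshold, 36 lost and 20 gained the threshold, and 6 changed sign, none of these 6 past the threshold. Those were Syt11 in the astrocyte fractions (-0.26) and Syt12 between the positive fractions (-0.15) and in the interaction (-0.0783), each with library totals only, Syt5 in microglia positive fraction against input without mouse 155 (0.012) or 194 (0.054; -0.0985 to 0.054 over all mice left out), and Syt12 in negative fraction against input with all groups in 1 fit (-0.00087). The causes were not tested.

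In microglia positive fraction against input, 1 member was higher with DESeq2, RLE scaling or a filter of 100 counts, and 0 to 1 with a mouse left out. Against the negative fraction, leaving out a mouse gave 0 to 1 higher and 1 to 4 lower members, and 1151 to 2090 higher and 570 to 2183 lower genes. In negative fraction against input, DESeq2 called 1 member lower, with 766 genes higher and 1290 lower, the replicate block called 4 lower and 1 higher, with 2684 and 2431 genes, and leaving out a mouse gave 0 to 1 higher members, 0 to 1774 higher and 0 to 2041 lower genes, the highest without mouse 155. No filter gave 53 higher and 228 lower genes there, and all groups in 1 fit 0 and 59. In input against whole tissue, all groups in 1 fit gave 1 higher and 0 lower members and 1121 higher genes. The count of lower members was 2 with DESeq2, RLE scaling or a filter of 100 counts, and 0 with no filter or the replicate block. Leaving out a mouse gave 2 to 4 higher and 0 to 1 lower members, 1270 to 2697 higher and 1190 to 2698 lower genes. In the astrocyte fractions it gave 1977 to 4887 higher and 1600 to 4844 lower genes. Between the positive fractions, 0 members were higher with library totals only, and 0 to 1 with a mouse left out. With the length of the longest transcript, 2 of the 3 most abundant members were shared with the order above in both Aldh1l1-NuTRAP fractions and in the Cx3cr1-NuTRAP negative fraction.

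Pairing by mouse (replicate block) changed no call of a member other than those given in the text. The astrocyte comparison rests on 3 mice, and on as few as 47 counts in a library for Syt17. Counts are deposited without molecular identifiers, so the precision covers the spread between mice only.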
